A study of Homo sapiens with 12 samples.

Results

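The FOS and JUN genes, which encode the core subunits of the transcription factor AP-1, were followed in 2 human non-small cell lung cancer lines treated with isovalerylspiramycin I (ISP-I), a macrolide. The members were taken by gene symbol: FOS, FOSB, FOSL1 and FOSL2 of the FOS class and JUN, JUNB and JUND of the JUN class, 7 of the 19973 genes in the deposited table. The rule used symbols alone, but the family was chosen with earlier results of these data known. H460 is an established line from a large cell lung carcinoma and A549 an established line from a lung adenocarcinoma, and the labels give both as wild type. The authors' paper states, however, that both lines have homozygous mutations that inactivate KEAP1. Each line was either non-treated (control; the labels name no vehicle) or given 10 µM ISP-I for 48 h. There were 3 libraries in each of the 4 groups and 12 in all. Levels are FPKM, that is a gene's reads per length and per library depth, so that they can be set beside each other between genes. Changes are differences in log2(FPKM + 1) tested with limma across all genes, and a gene was called where its Benjamini-Hochberg adjusted p was under 0.05 and the difference exceeded 1 on that scale. For genes near or under 1 FPKM this scale understates the change, so the plain ratio of mean FPKM is given beside it.

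AP-1 is a dimer of basic leucine zipper proteins. JUN proteins pair with each other or, more stably, with a FOS protein, whereas FOS proteins need a JUN partner, and the dimers bind the TPA response element (TRE) and, in some pairings, the cyclic AMP response element (CRE). In resting epithelial cells FOS, FOSB and JUN are typically low, and growth factors, cytokines or stress induce them within minutes through MAP kinases that act on factors already bound at their promoters. FOSL1 and FOSL2 are usually induced later and last longer, FOSL1 is often abundant in carcinoma lines with active RAS signaling, and JUND is the most evenly expressed member.

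Reads on genes numbered 14225849 to 17874422 per library, and 100% of the values fell on whole numbers of reads (within 0.05). Replicates are numbered here by their order within a group. The table's columns give line, treatment and a running number within the line, not the replicate number of the labels. Since the labels do not say whether the libraries of a group came from separate cultures, the p-values measure the spread between these libraries only. Keratins KRT8, KRT18 and KRT19 had group means of 45.6 to 650 FPKM, while of the other epithelial markers EPCAM was at 0.148 FPKM or less in every H460 library and CDH1 was at 0 in 5 of the 6. The 5 epithelial markers summed to 327.3 to 431.6 FPKM in H460, to 924.1 to 1252 in A549 control and to 628.1 to 659.2 in A549 with ISP-I. The 5 immune and endothelial markers summed to 0.392 FPKM or less in any library, with CD3E at 0 in all 12. The strand setting of the counting was not given in the sources used here, so reads from ERCC1, HOOK2 and FOSL2-AS1, which lie on the opposite strand and overlap FOSB, JUNB and FOSL2, may be included in those genes' values. A lncRNA on the same strand also overlaps FOSL2.

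The members lie on 5 chromosomes (hg38). FOS is at chr14:75278826-75282230, FOSB at chr19:45467995-45475179, FOSL1 at chr11:65892049-65900573 and FOSL2 at chr2:28392448-28417317. JUN is at chr1:58776845-58784048, JUNB at chr19:12791486-12793315 and JUND at chr19:18279694-18281622. The FOS class genes share a 4-exon canonical transcript, and the JUN class genes consist of a single exon each. Promoter sequence (RefSeq, GRCh38.p14) was matched for 6 of the 7 members, all but FOSL1. It was searched from 250 bases before to 50 bases after the start for the CRE (TGACGTCA), the CRE half-site (TGACG, on either strand), the TRE (TGACTCA) and the TATA letters TATAAA, with the other strand read wherever a motif is not its own complement, and for the CArG box bound by SRF. A half-site is contained in every full CRE. The sequences from 210 to 3 bases before the start of FOS, FOSB, JUN, JUNB and JUND are shown because FOS, FOSB and JUN were called in both lines, JUNB in H460 and JUND in neither. Capitals mark a CRE with at most 1 mismatch, or a lone half-site. They are read 5′ to 3′ on each gene's own strand, at chr14:75278618-75278825 (+), chr19:45467786-45467993 (+), chr1:58784050-58784257 (-), chr19:12791276-12791483 (+) and chr19:18281625-18281832 (-).
FOS: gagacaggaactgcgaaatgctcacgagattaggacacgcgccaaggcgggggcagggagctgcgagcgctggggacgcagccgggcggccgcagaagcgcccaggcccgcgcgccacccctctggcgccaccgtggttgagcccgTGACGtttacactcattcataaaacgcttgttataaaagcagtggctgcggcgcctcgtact
FOSB: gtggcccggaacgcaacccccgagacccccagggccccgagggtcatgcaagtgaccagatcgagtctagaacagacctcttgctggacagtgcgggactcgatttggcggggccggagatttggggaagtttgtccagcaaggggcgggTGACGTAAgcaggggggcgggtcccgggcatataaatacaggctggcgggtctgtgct
JUN: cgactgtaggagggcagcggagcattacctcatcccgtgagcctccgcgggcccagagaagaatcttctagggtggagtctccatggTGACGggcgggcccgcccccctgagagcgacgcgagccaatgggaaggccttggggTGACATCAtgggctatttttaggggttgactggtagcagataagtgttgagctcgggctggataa
JUNB: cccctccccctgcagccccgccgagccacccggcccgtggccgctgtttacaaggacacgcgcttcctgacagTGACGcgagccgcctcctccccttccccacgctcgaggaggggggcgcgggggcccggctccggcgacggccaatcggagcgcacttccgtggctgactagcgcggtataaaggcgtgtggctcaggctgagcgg
JUND: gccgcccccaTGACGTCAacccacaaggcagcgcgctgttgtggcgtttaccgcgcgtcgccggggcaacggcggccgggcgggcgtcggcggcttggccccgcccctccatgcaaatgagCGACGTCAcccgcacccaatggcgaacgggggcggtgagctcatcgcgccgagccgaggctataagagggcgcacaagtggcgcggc
A half-site lay in all 6 promoters, against 24.6% of the 35114 promoters in the table, and it was the only marked match in FOS, 64 bases before the start, and in JUNB, 137 bases before it. A CRE with at most 1 mismatch, found in 11.8% of promoters, lay in FOSB (TGACGTAA, 60 bases before the start), in FOSL2, whose RefSeq start lies inside the listed gene (TGACGTGA, 66 bases before it, and TGGCGTCA, 204 bases before it) and in JUN (TGACATCA, 67 bases before it). JUND held the exact CRE, found in 1.85% of promoters, 200 bases before its start, and CGACGTCA 89 bases before it. A TRE lay in FOSL2, 5 bases after its start, against 4.95% of promoters. TATAAA, found in 11.5%, lay 33, 30 and 31 bases before the start in FOS, FOSB and JUNB. No CArG box was matched in these windows, against 1.29% of promoters. Sequence further upstream was not searched, so boxes beyond 250 bases before the start would have been missed.

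In H460, 6 of the 7 members rose after ISP-I, from 4.17-fold for JUNB to 105-fold for FOSB, and JUND did not pass the test. In A549, 4 members rose: FOSB by 18.4-fold, FOS by 4.57-fold, JUN by 2.96-fold and FOSL1 by 2.75-fold. Of all genes tested, 25.7% were called in H460 (10.5% higher and 15.2% lower) and 7.71% in A549 (4.2% higher and 3.51% lower), and no member was called lower in either line. The balance over all genes in H460, 1409 higher and 2047 lower, turned with the scaling, to 1928 and 1441 with median-of-ratios factors. At any fold change, adjusted p was under 0.05 for 6 members in H460, where 69.2% of all genes passed, and for 5 in A549, where 57.5% passed. The FPKM of the 2 groups did not overlap for 6 members in each line, as for 72.7% of all genes in H460 and 65.5% in A549. The members' median difference was 3.62 on the log2 scale in H460, where all genes had a median of -0.15, and 1.45 in A549, where the median was 0.02. In these bulk libraries a change in the number of cells that express a gene cannot be told apart from a change in RNA per cell.

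**Figure D1:**
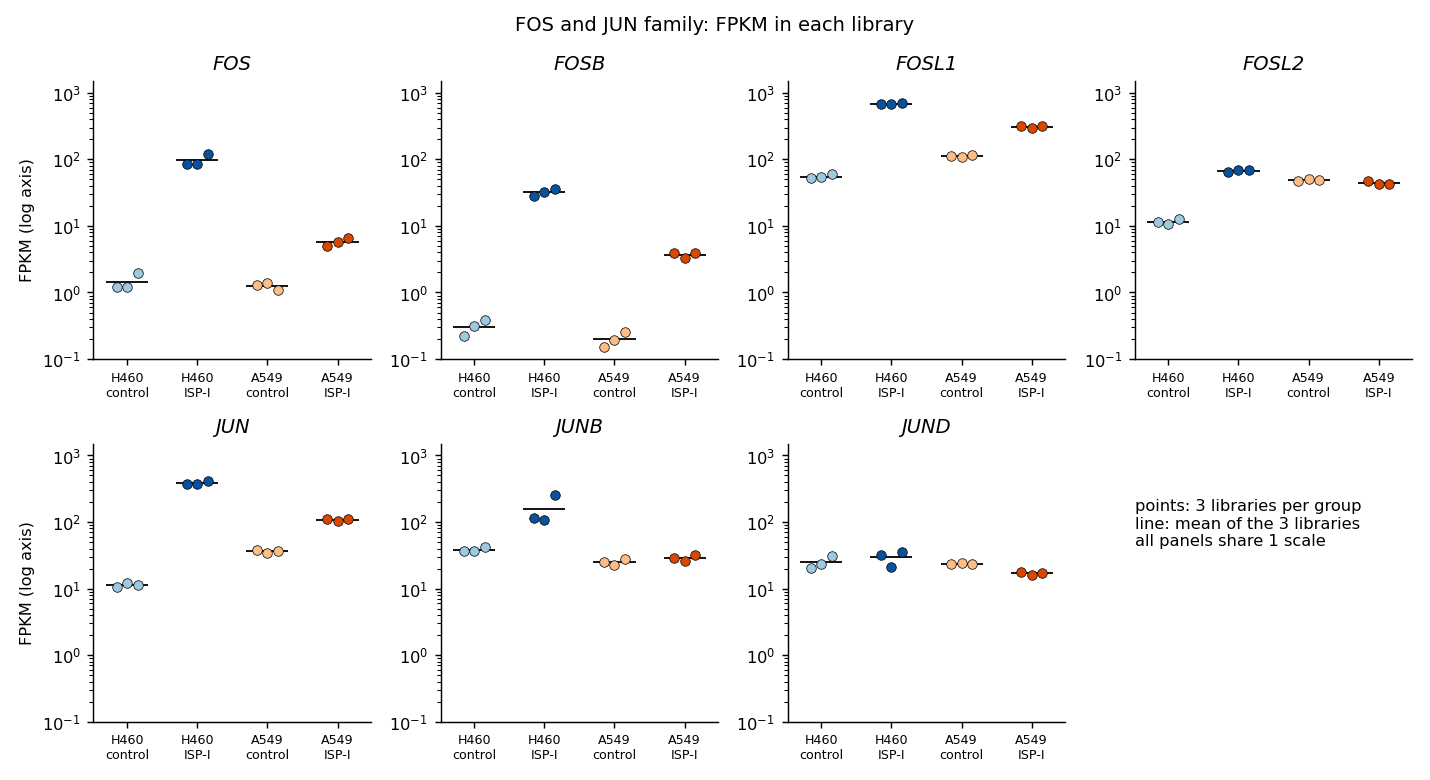
FPKM of the 7 FOS and JUN family genes in each of the 12 libraries (points, log axis, 3 libraries per group) with the group mean (line). In H460 every member but JUND lies higher with ISP-I than in control, and in A549 this holds for FOS, FOSB, FOSL1 and JUN.

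FOS encodes the founding FOS protein, whose mRNA is short-lived. In H460 control libraries it was at 1.20, 1.22 and 1.96 FPKM, and with ISP-I at 85.3, 85.1 and 120.5. In A549 it was at 1.30, 1.41 and 1.08 in control and at 5.02, 5.68 and 6.63 with ISP-I. The groups did not overlap in either line, and the highest treated A549 library lay far under the lowest treated H460 library. The control values rested on 51 to 93 reads per library. The change was 5.31 in H460 (SE 0.179, limma adjusted p 2.23e-07, 66.4-fold by mean FPKM) and 1.58 in A549 (SE 0.108, adjusted p 1.10e-05).

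FOSB encodes a FOS protein that also exists as a truncated, long-lived splice form, which gene-level values do not separate. It was the lowest member in both control groups, at 0.225, 0.308 and 0.387 FPKM in H460 and 0.152, 0.196 and 0.256 in A549, on 12 to 32 reads per library. With ISP-I it reached 27.9, 32.7 and 36.0 FPKM in H460. In A549 with ISP-I it reached 3.88, 3.34 and 3.87. All treated libraries lay above all control libraries of their line. The change was 4.66 in H460 (SE 0.128, adjusted p 9.89e-08) and 1.97 in A549 (SE 0.0799, adjusted p 9.90e-07). With so low a control level these values depend on the pseudocount: limma voom on the recovered reads, scaled by library totals, gave 6.71 in H460 and 4.18 in A549. The overlapping ERCC1, a DNA repair gene on the other strand, changed by 0.59 in H460 and 0.77 in A549 and was not called.

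FOSL1 encodes FRA-1, a FOS protein without the strong transactivation domain of FOS. It had the highest FPKM of the family in all 4 groups. Control H460 libraries held 51.5, 53.6 and 60.2 FPKM, and those with ISP-I held 687, 667 and 711. In A549 the levels were 112, 108 and 116 FPKM in control and 313, 296 and 317 with ISP-I. Neither line showed overlap between treated and control libraries, and with ISP-I its group mean was above that of 99.8% of all genes in H460 and 99.6% in A549. The change was 3.62 in H460 (SE 0.134, adjusted p 3.36e-07, 12.5-fold) and 1.45 in A549 (SE 0.0691, adjusted p 1.94e-06).

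FOSL2 encodes FRA-2, the other FOS protein of that kind. In H460 it was at 11.5, 10.6 and 12.7 FPKM in control and at 65.4, 69.5 and 68.1 with ISP-I, a 5.82-fold rise without overlap (2.45, SE 0.113, adjusted p 7.97e-07). In A549 it was at 47.8, 50.2 and 49.0 FPKM in control and at 46.6, 42.0 and 42.8 with ISP-I. There the groups also did not overlap, with the treated libraries lower, but the difference of -0.16 did not pass the test (SE 0.0666, 95% interval -0.31 to -0.0051, adjusted p 0.0724).

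JUN encodes the JUN subunit that, bound to a FOS protein or to ATF2, activates its own promoter among others. In H460 it was at 10.7, 12.1 and 11.3 FPKM in control and at 367, 375 and 419 with ISP-I. A549 libraries held 37.9, 34.7 and 37.1 FPKM in control and 110, 103 and 113 with ISP-I. The groups were far apart in H460 and clearly separated in A549, and the coefficient of variation was at most 7.22% in every group. The change was 4.97 in H460 (SE 0.120, adjusted p 6.96e-08, 34.1-fold) and 1.54 in A549 (SE 0.0684, adjusted p 1.45e-06).

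JUNB encodes a JUN protein that activates more weakly than JUN at many sites. In H460 it was at 36.4, 36.7 and 41.4 FPKM in control and at 116, 106 and 256 with ISP-I. Treated library 3 stood apart from the others, so that the coefficient of variation was 52.6%, but all treated libraries lay above the controls. The change was 1.92 (SE 0.301, adjusted p 0.000526), and without that library it was 1.52 (adjusted p 2.30e-06). In a test against a 2-fold change (limma treat) the adjusted p was 0.0557. In A549 JUNB was at 24.7, 22.3 and 27.6 FPKM in control and at 29.1, 26.2 and 31.9 with ISP-I, overlapping ranges with a difference of 0.22 (SE 0.0999, 95% interval -0.01 to 0.45, adjusted p 0.0923). HOOK2, which encodes a microtubule linker and overlaps JUNB on the other strand, was at a mean of 2.75 FPKM or less in every group.

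JUND encodes the JUN protein usually found at steady levels. In H460 it was at 20.7, 23.1 and 30.7 FPKM in control and at 32.4, 21.3 and 35.7 with ISP-I. These ranges overlapped, and the difference of 0.24 (SE 0.214) had a 95% interval from -0.25 to 0.73 and an adjusted p of 0.344. In A549 it was at 23.7, 24.3 and 23.1 FPKM in control and at 17.8, 16.2 and 16.9 with ISP-I, all treated libraries lower. That difference of -0.46 passed the adjusted p (SE 0.0653, adjusted p 0.000504) but at a ratio of 0.717 it did not reach the fold limit.

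JUND and JUNB have the most GC-rich transcripts of the family, with 69.9% and 64.9% GC, above those of 99.1% and 95.1% of all genes, while the other members lie between 52.8% and 58.7%. Among genes averaging at least 1 FPKM in H460, the 506 in the top 5% of GC content were set apart. In H460 with ISP-I they had median log2 values of -0.65, -0.81 and -0.43 in libraries 1 to 3 relative to the control mean. The other genes averaging at least 1 FPKM had -0.20, -0.21 and -0.19. JUNB and JUND were each highest in library 3 and lowest in library 2 of that group, as was this GC-rich set. After removal of each library's trend with GC content, a setting chosen after seeing the data, the difference in H460 was 0.62 for JUND (adjusted p 0.00831) and 2.29 for JUNB (adjusted p 6.09e-05). Scaling by median-of-ratios factors moved the median of all genes in H460 by 0.16 and gave 0.52 for JUND (adjusted p 0.0612), and neither setting changed a call of a member between ISP-I and control in H460.

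**Figure D2:**
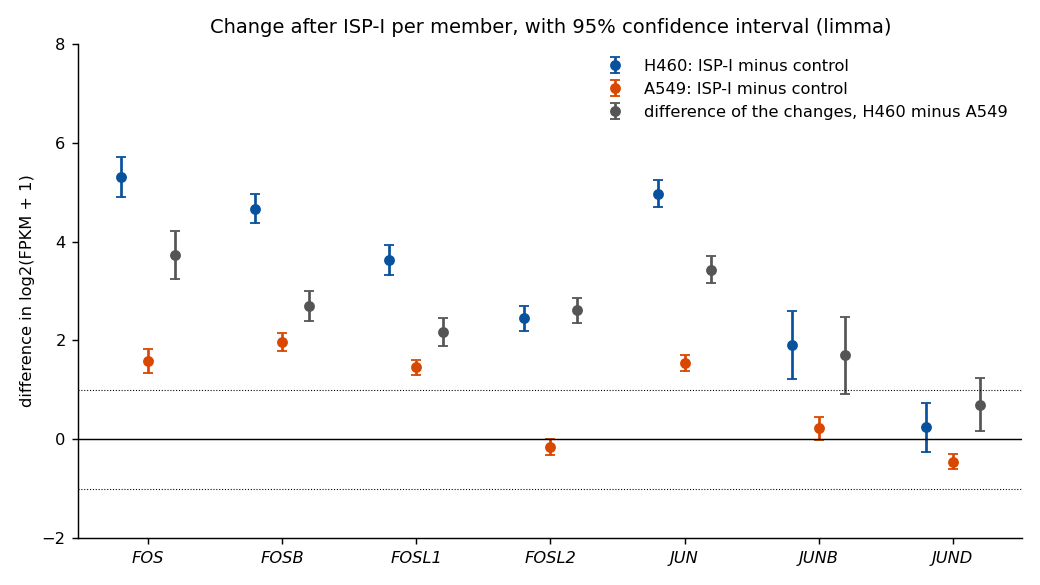
Difference in log2(FPKM + 1) between ISP-I and control for each member in H460 (blue) and A549 (orange), and the difference of these changes between the lines (grey); bars are 95% confidence intervals from limma and dotted lines mark a 2-fold change. The H460 points lie above the A549 points for all 7 members, and the grey interval lies above 0 for each.

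Whether the response differed between the lines was tested as the interaction of line and treatment over all 12 libraries. The rise was larger in H460 for 6 of the 7 members, where 16% of all genes were called in either direction. The excess of H460 over A549 was 3.73 for FOS (SE 0.221, limma adjusted p 1.06e-07), 3.43 for JUN (SE 0.123, adjusted p 2.55e-09) and 2.70 for FOSB (SE 0.142, adjusted p 4.60e-08). It was 2.61 for FOSL2 (SE 0.117, adjusted p 1.28e-08), 2.17 for FOSL1 (SE 0.130, adjusted p 1.12e-07) and 1.70 for JUNB (SE 0.357, adjusted p 0.00168). For JUND the excess of 0.70 passed the adjusted p (SE 0.244, adjusted p 0.0294) without reaching the fold limit. The median of the members was 2.61, against -0.16 over all genes.

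The lines also differed before treatment. In control libraries 3 members were called lower in H460 than in A549, where 14% of all genes were called in either direction: FOSL2 by 4.22-fold (log2 difference -1.99, SE 0.0827, adjusted p 5.68e-10), JUN by 3.22-fold (-1.61, SE 0.0869, adjusted p 7.23e-09) and FOSL1 by 2.04-fold (-1.02, SE 0.0917, adjusted p 1.04e-06). The FOSL1 difference sat at the fold limit and was -0.97 without H460 control library 1, -0.997 without H460 control library 2 and -0.99 without A549 control library 3. JUNB was 1.54-fold higher in H460 control by mean FPKM. Its control libraries did not overlap, at 36.4 to 41.4 FPKM in H460 and 22.3 to 27.6 in A549, as for 63.3% of all genes. It did not pass the test (0.60, SE 0.252, limma adjusted p 0.0580). That fit took the spread of JUNB from all 12 libraries, including treated H460 libraries at 106 to 256 FPKM. FOS, FOSB and JUND overlapped between the lines with differences of 0.11, 0.12 and 0.05. With ISP-I, 5 members were called higher in H460 than in A549, where 23.7% of all genes were called: FOS by 16.8-fold, FOSB by 8.71-fold, JUNB by 5.48-fold, JUN by 3.57-fold and FOSL1 by 2.23-fold. FOSL2 (0.62, adjusted p 2.50e-05) and JUND (0.74, adjusted p 0.00192) passed the adjusted p without reaching the fold limit. The order of the lines for JUN and FOSL1 was thus opposite before and after treatment. It also turned for FOSL2, which with ISP-I was 1.54-fold higher in H460 by mean FPKM without overlap, under the fold limit. These comparisons share libraries with the tests within each line.

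The order of levels within a line also changed. H460 control ran FOSL1, JUNB, JUND, FOSL2, JUN, FOS and FOSB from highest to lowest mean, with FOSL2 and JUN overlapping. With ISP-I it ran FOSL1, JUN, JUNB, FOS, FOSL2, FOSB and JUND, with JUNB and FOS overlapping and FOSB and JUND overlapping. A549 control ran FOSL1, FOSL2, JUN, JUNB, JUND, FOS and FOSB, with JUNB and JUND overlapping, and with ISP-I JUN came before FOSL2 and no neighbouring ranges overlapped. The ranges of all other neighbours did not overlap.

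Summed over the family, FPKM went from 143 ± 13.9 (SD, n = 3) to 1461 ± 160 in H460 and from 248 ± 6.53 to 516 ± 21.4 in A549, given here as a description without a test. FOSL1 held the largest share in every group, 38.6% ± 0.578 and 47.4% ± 3.62 in H460 control and ISP-I, and 45.3% ± 0.424 and 59.8% ± 0.299 in A549 control and ISP-I. JUN went from 7.99% ± 0.855 to 26.5% ± 1.11 of the sum in H460 and from 14.8% ± 0.483 to 21.0% ± 0.142 in A549. The constitutive JUND made up 17.3% ± 1.88 and then 2.03% ± 0.408 in H460, and 9.57% ± 0.494 and then 3.29% ± 0.106 in A549. JUNB went from 26.8% ± 0.710 to 10.6% ± 4.30 in H460, although its own level rose, and from 10.0% ± 0.806 to 5.62% ± 0.337 in A549. FOS and FOSB together stayed small beside FOSL1, with 6.59% ± 0.634 and 2.21% ± 0.195 in H460 after ISP-I and 1.12% ± 0.148 and 0.715% ± 0.0319 in A549. The ratio of summed FOS class to JUN class FPKM was 0.923 ± 0.0252 in H460 control and 1.57 ± 0.215 with ISP-I, and 1.91 ± 0.0507 and 2.34 ± 0.0454 in A549. It thus started from different sides of 1 in H460 and A549, and in H460 treated library 3 its value of 1.32 was the lowest of the group.

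**Figure D3:**
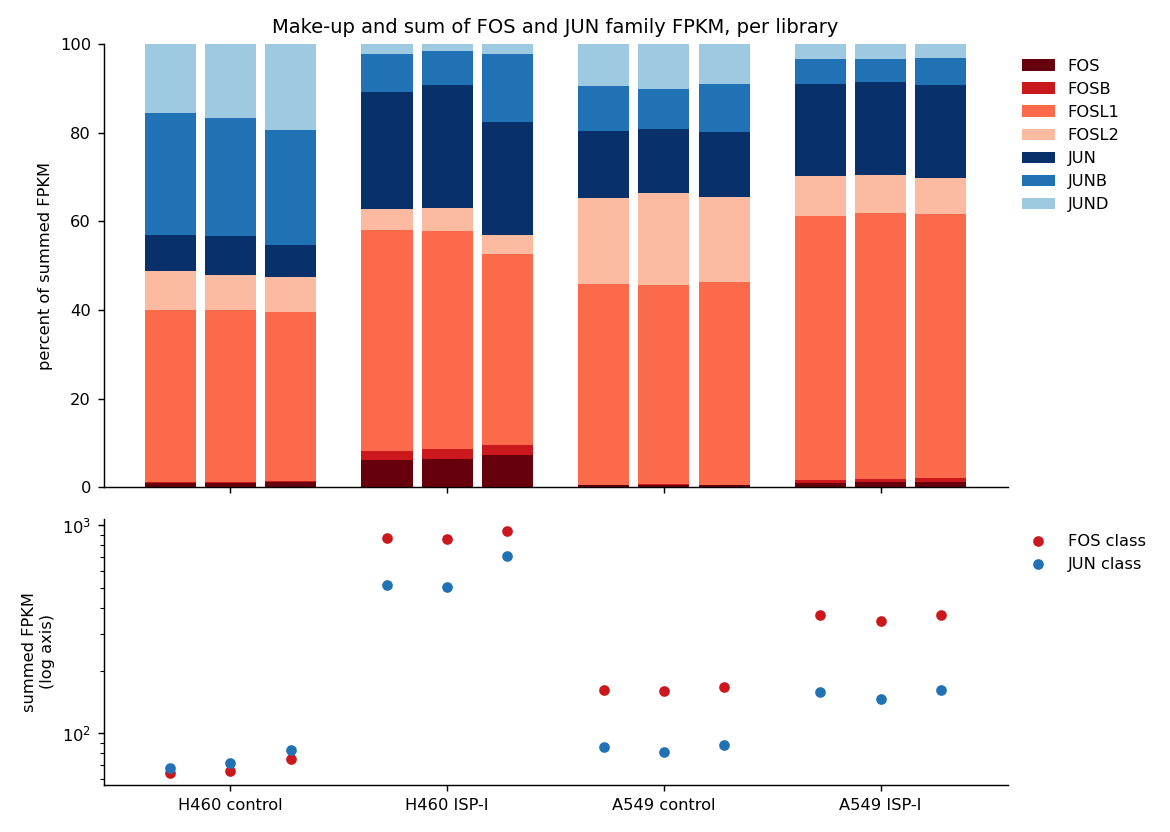
Upper panel, share of the summed FOS and JUN family FPKM held by each member in each library (percent, bars stacked from 0); lower panel, summed FPKM of the FOS class and of the JUN class per library (log axis). FOSL1 is the largest block in all 12 libraries, the JUN block is larger and the JUND block smaller with ISP-I in both lines, and the JUNB block is largest among treated H460 libraries in library 3.

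Beyond FOS and JUN, AP-1 dimers take in ATF, BATF and MAF proteins. Of these partners, 5 of 15 tested rose in H460 (33.3%) and 4 of 14 in A549 (28.6%), and none was called lower. Of all genes, 25.7% were called in H460 (10.5% higher) and 7.71% in A549 (4.2% higher). ATF3, a stress-induced partner that often represses, rose in H460 from 1.04 ± 0.230 to 24.8 ± 3.77 FPKM. In A549 it rose from 1.34 ± 0.119 to 18.8 ± 0.264. MAFF, a small MAF protein without a transactivation domain, rose in H460 from 0.684 ± 0.0783 to 29.2 ± 7.23 FPKM and in A549 from 1.28 ± 0.0563 to 7.55 ± 0.684. BATF2 rose in A549 from 0.381 ± 0.0682 to 3.09 ± 0.126. JDP2 was lower with ISP-I in both lines without reaching the fold limit on this scale. It went from 0.651 ± 0.251 to 0.0741 ± 0.0111 FPKM in H460 (-0.61, limma adjusted p 0.000869). In A549 it went from 3.35 ± 0.415 to 1.29 ± 0.285 (-0.93, limma adjusted p 0.000227). The median change of the list was 0.38 in H460 and 0.41 in A549. BATF in both lines and MAF in A549 were under the filter on low values.

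The MAP kinase cascade that phosphorylates JUN, ATF2 and the ternary complex factors is controlled largely at the protein level, which these data do not show. At the RNA level 1 of 23 tested genes rose and 6 fell in H460, and 1 of 22 rose and 1 fell in A549. In either direction 30.4% and 9.09% were called, beside 25.7% and 7.71% of all genes. With median-of-ratios scaling the H460 count was 5 rises and 4 falls, so the balance of this list turned with the scaling. MAP2K3, a kinase that activates p38, rose in H460 from 34.8 ± 3.83 to 169 ± 12.2 FPKM and in A549 from 23.3 ± 3.47 to 51.6 ± 1.498. MAPK9, which encodes the JUN kinase JNK2, fell in H460 from 9.78 ± 0.664 to 2.24 ± 0.217 FPKM, and MAP3K11, a kinase upstream of JNK, fell there from 12.4 ± 1.29 to 3.16 ± 0.224. Both were also lower with ISP-I in A549 without reaching the fold limit. The differences there were -0.54 for MAPK9 and -0.77 for MAP3K11 (limma adjusted p 0.000302 and 0.000163). MAP2K6, the other p38 kinase kinase, fell in A549 from 2.47 ± 0.327 to 0.433 ± 0.0761. In H460 MAP2K6 went from 0.974 ± 0.106 to 0.104 ± 0.0294 FPKM. That difference of -0.84 (limma adjusted p 1.31e-05) was under the fold limit on this scale. MAPK10 in both lines and RPS6KA2 in A549 were under the filter.

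Among factors that bind FOS and JUN promoters, 2 of 12 rose in H460 (16.7%), and 5 did with median-of-ratios scaling. Of all genes, 25.7% were called in H460 (10.5% higher) and 7.71% in A549. In H460 ATF1, which binds the CRE, rose from 13.5 ± 2.82 to 58.5 ± 6.83 FPKM. MEF2A, which binds the JUN promoter, rose there from 2.20 ± 0.364 to 6.66 ± 2.31. Without H460 ISP-I library 2 the count was 1. In A549 none of 11 was called by limma. At any fold 8 had a p under 0.05, unadjusted as well as adjusted. Of all genes in A549, 57.5% had an adjusted p under 0.05 at any fold. Voom with library totals gave 1 call, voom with median-of-ratios factors gave 0, and leaving out A549 control library 1 gave 1 call. The gene with the smallest p there was STAT3, at 26.9 ± 0.722 FPKM in control and 17.8 ± 0.824 with ISP-I.

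Of genes that act in the turnover of AP-1 proteins and mRNAs, 4 of 12 rose and 1 fell in H460, and 1 of 12 rose in A549. In either direction 41.7% and 8.33% were called, beside 25.7% and 7.71% of all genes. ZFP36, which encodes tristetraprolin, a protein that speeds the decay of AU-rich mRNAs such as that of FOS, rose in H460 from 18.3 ± 1.98 to 78.0 ± 14.3 FPKM and in A549 from 9.88 ± 0.570 to 25.3 ± 2.22. Its relative ZFP36L1 rose in H460 from 8.20 ± 0.444 to 26.1 ± 1.97, as did ITCH, a ubiquitin ligase for JUN and JUNB, from 5.77 ± 0.840 to 17.0 ± 4.23. The list medians were -0.25 and 0.01.

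Of the textbook targets of AP-1, 7 of 22 tested rose in H460 (31.8%) and 3 of 23 in A549 (13.0%), and none was called lower in these fits. Of all genes, 25.7% were called in H460 (10.5% higher) and 7.71% in A549 (4.2% higher). CXCL8, a neutrophil chemokine, rose in H460 from 67.0 ± 6.86 to 1755 ± 144 FPKM, and in A549 it was at 5.27 ± 0.592 in control and 5.26 ± 0.981 with ISP-I (log2 difference -0.01, limma adjusted p 0.953). The cytokine IL11 rose there from 0.335 ± 0.0545 to 9.75 ± 2.97, and in A549 IL11 was at 13.9 ± 1.07 in control and 27.4 ± 0.580 with ISP-I (0.93, under the fold limit). In A549, HBEGF, a ligand of the EGF receptor, rose from 1.57 ± 0.165 to 6.05 ± 0.901, and in H460 from 3.03 ± 0.729 to 22.7 ± 0.989. The matrix metalloproteinase MMP10 was at 0 to 0.0400 FPKM in A549 control and at 1.59 to 2.68 with ISP-I, and MMP1 was listed at 0 in all 3 A549 control libraries and at 1.495 to 2.19 with ISP-I. The list medians, 0.44 and 0.26, were closer to those of all genes than the medians of the FOS and JUN genes themselves. Under the filter were MMP13 and SPRR1B in both lines, CCL2 and IVL in H460, and FASLG in A549.

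Other immediate early genes, which are induced by the same kinds of signal as FOS and JUN, had the largest share of calls among the lists in H460, 20 of 24 (83.3%), and 7 of 23 rose in A549 (30.4%), with EGR3 under the filter there. None was called lower in these fits, and of all genes 25.7% were called in H460 and 7.71% in A549. EGR1, a zinc finger factor, went to 761 ± 86.8 FPKM in H460 and to 42.1 ± 3.04 in A549. ARC, best known from neurons, rose in H460 from 0.592 ± 0.149 to 121 ± 21.4 FPKM and in A549 from 0.359 ± 0.0243 to 17.9 ± 0.591. EGR4 rose in H460 from 0.140 ± 0.126 to 76.9 ± 25.8, and DUSP1, a phosphatase of MAP kinases, rose in A549 from 79.1 ± 7.91 to 216 ± 7.996 and in H460 from 15.2 ± 1.25 to 62.5 ± 14.1. The list medians were 2.10 in H460 and 0.77 in A549, against 3.62 and 1.45 for the FOS and JUN genes.

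**Figure D4:**
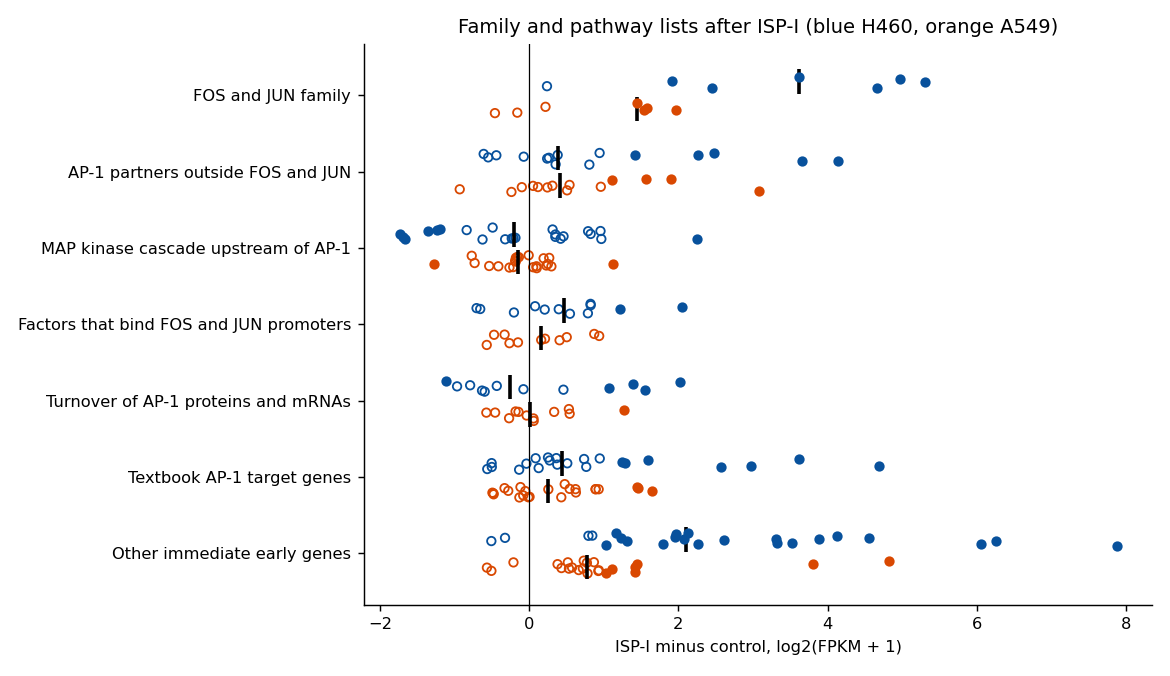
Difference in log2(FPKM + 1) between ISP-I and control for each tested gene of the FOS and JUN family and of the 6 pathway lists, in H460 (blue) and A549 (orange); filled points were called and vertical bars are list medians. The median of the other immediate early genes is the highest after that of the family in both lines, and the MAP kinase genes straddle 0.

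For each member called in either line, the genes with the most similar profile were sought among 6650 genes whose mean reached 5 FPKM, by the root mean square difference of log2(FPKM + 1), each centred on its own mean, over the 12 libraries. Nearest to FOS was FOSB (0.40, where the member's own deviation about its mean was 2.20), followed by NID1 (0.43) and CD300LB (0.45). FOSB was nearest to CD300LB (0.29), CSRNP1 (0.30) and NR1D1 (0.30). FOSL1 was nearest to ETS1 (0.19), an ETS factor, and to C11orf68 (0.20), a gene 16237 bases from it, then CRABP2 (0.27). FOSL2, the member with a rise in H460 and none called in A549, was nearest to EPHA2 (0.16), an ephrin receptor, then TM4SF1 (0.21) and TPP1 (0.22). JUN was nearest to WNT9A (0.31), ARL14 (0.32) and MAFF (0.44), and JUNB to FZD8 (0.26), ZC3H12A (0.26), an RNase that degrades inflammatory mRNAs, and MYC (0.28). Of the genes named, FOSB, NID1, CD300LB and ARL14 had means under 5 FPKM in every group but treated H460. MAFF and FZD8 also averaged under 5 FPKM over the libraries outside treated H460. All of these genes passed the filter only through treated H460, so the filter itself favored genes high there.

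Within 50 kb of the members, a window chosen after seeing the data, lay 28 other genes of the table. In H460, 7 of the 23 tested were called (25.7% of all genes were) and in A549 2 of 20 (7.71%). FOSL1 had 10 such neighbours, and 6 of them were called in H460 and 1 of the 8 tested in A549. C11orf68, 16237 bases upstream of the FOSL1 start, rose from 16.8 to 175 FPKM in H460 (log2 difference 3.28, SE 0.170) and from 33.7 to 86.4 in A549 (1.34, SE 0.107). CCDC85B, 414 bases beyond the other end of FOSL1, rose from 84.3 to 317 in H460 (1.89, SE 0.150) and was at 104 and 159 in A549 (0.62, not called). DRAP1, CTSW and EFEMP2 also rose in H460, by 1.08, 1.48 and 1.16, whereas MUS81, an endonuclease gene, fell by 1.02. The changes of DRAP1 and MUS81 (SE 0.263 and 0.131) lay close to the fold limit.

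**Figure D5:**
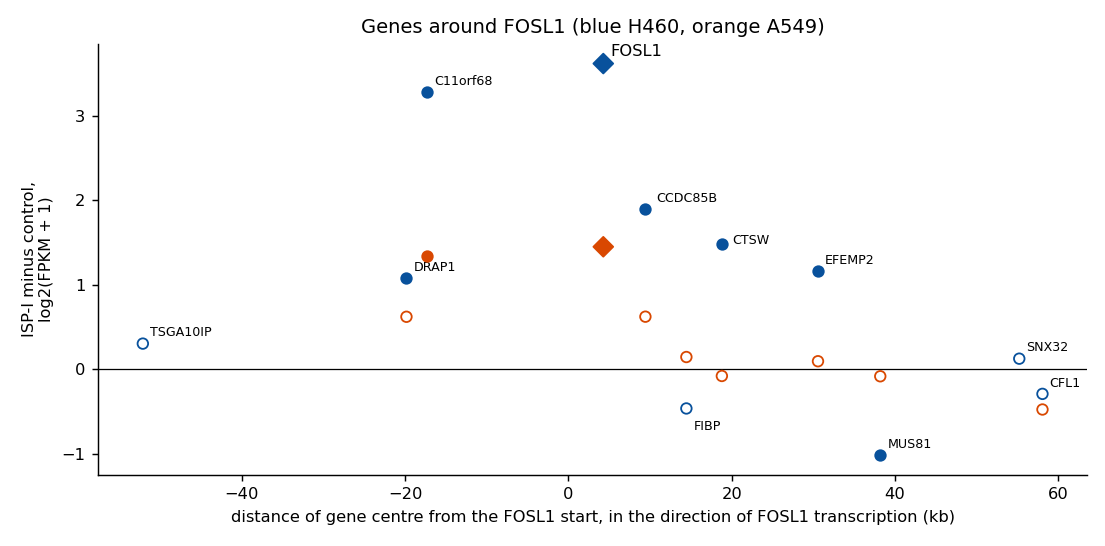
Difference in log2(FPKM + 1) between ISP-I and control for FOSL1 (diamonds) and the genes within 50 kb of it, by the distance of the gene centre from the FOSL1 start in kb, in H460 (blue) and A549 (orange); filled circles were called. C11orf68 lies close to FOSL1 in both lines, at 3.28 and 1.34, and MUS81 is the called gene below 0, in H460 at -1.02, close to the fold limit.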

How the data were processed

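RNA of H460 and A549, control or with ISP-I, was sequenced by the authors as paired-end reads, filtered with FastQC, mapped to hg38 with HISAT2 and counted with HTSeq 0.9.1 (tools also named in the submitters' processing notes). The deposited values are FPKM per gene, made by the authors from these counts; the annotation version was not given in the sources used here. Gene length, another deposited column in bases, was used to recover reads (whole within 0.05). Of 19977 lines, 4 were fragments of an annotation cell and were left out; all 12 sample columns were used.

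log2(FPKM + 1) was compared with limma 3.58.1 (R 4.3.3, trend) for genes averaging 0.1 FPKM or more, 13423 in H460, 13705 in A549 and 13953 in all 12 libraries, with Benjamini-Hochberg adjustment over all of them; the script was tested on simulated data. The members and the 6 pathway lists were chosen with earlier results of these data known. Named list genes were up to 3 called genes with the largest change per list and line, or else the gene with the smallest p. Some genes that this rule names are not reported here. Alternatives were another pseudocount, filters, scalings, voom, treat, 1 fit of 12 libraries and leaving out each library. Tables were handled with Python 3.11.15 (pandas 2.3.3, numpy 2.4.6).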

Additional observations from a re-analysis of the deposited data

Results flagged for a closer look

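The change after ISP-I differed between H460 and A549 for 6 members, by the interaction of line and treatment (limma, adjusted p under 0.05 and more than 1 on the log2 scale). The difference, H460 minus A549, was 3.73 for FOS, 2.70 for FOSB, 2.17 for FOSL1, 2.61 for FOSL2, 3.43 for JUN and 1.70 for JUNB. Treated libraries of H460 lay above those of A549 in all 3 libraries for each of these 6 genes, and also for JUND. Of all genes, 73.6% did not overlap between the ISP-I groups, in either direction. FOSL2 rose in H460 and was slightly lower with ISP-I in all 3 A549 libraries, where it did not pass the test. JUNB rested on treated H460 libraries that differed among themselves, and against a 2-fold difference (treat) its adjusted p was 0.478. No cause of these differences was tested.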

How the results depend on the processing

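The counts of called members changed under no alternative by over 1.5 times. Leaving out a library gave 6 of 7 members in H460, 4 in A549, 6 for the difference between the lines, 2 to 3 between the controls and 5 between the ISP-I groups. FOS and JUND, not called between the controls, ranged from -0.033 to 0.18 and from -0.11 to 0.16 when a library was left out, negative without H460 control library 3, and JUND turned to -0.0053 with quantile normalization. JUND passed the fold limit with median-of-ratios scaling for the difference between the lines (1.001) and between the ISP-I groups (1.10), there also after removal of the GC trend (1.12, adjusted p 5.58e-06), FOSL1 between the controls missed it with that scaling (-0.97), and against a 2-fold change the adjusted p of FOSL1 between the ISP-I groups was 0.338.

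List counts are given in the order H460, A549, beside 5 and 4 for partners, 7 and 2 for MAP kinases, 2 and 0 for promoter-binding factors, 5 and 1 for turnover, 7 and 3 for targets and 20 and 7 for immediate early genes. At any fold they were 12 and 10, 21 and 10, 9 and 8, 11 and 8, 17 and 17 and, in A549, 23. Of all genes, 69.2% passed at any fold in H460 and 57.5% in A549. With a pseudocount of 0.1, partners were 8 and 7, targets 13 and 7 and A549 immediate early genes 11. With voom and median-of-ratios, partners were 8 and 8, H460 MAP kinases 14, H460 promoter factors 5, targets 12 and 7 and A549 immediate early genes 11; with library totals, A549 partners were 8, H460 MAP kinases 11, A549 promoter factors 1, targets 11 and 7 and A549 immediate early genes 11. With FPKM scaled by median-of-ratios, H460 promoter factors were 5. Against a 2-fold change (treat), MAP kinases were 4 and 0, H460 promoter factors 1 and turnover 2 and 0. Leaving out a library gave 1 to 2 promoter factors in H460 and 0 to 1 in A549.

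Over all genes, calls went from 3456 in H460 and 1056 in A549 to 5786 and 2398 with the pseudocount of 0.1, 5834 and 2593 with voom and median-of-ratios, 6026 and 2590 with library totals, 9287 and 7887 at any fold and 1802 and 400 with treat. For the difference between the lines, the controls and the ISP-I groups, 2234, 1949 and 3304 became 4239, 3595 and 5622, then 4023, 4014 and 5889, 4381, 4012 and 6095, 7437, 8025 and 9902, and 680, 1133 and 1904, in the same order of settings. The causes were not tested, other than that a rule without a fold limit admits smaller changes. No paired analysis was possible because the columns carry a running number within each line, which treated and control libraries do not share, and not the labels' replicate number. In H460 the split of higher and lower calls was 1409 and 2047, against 1928 and 1441 with median-of-ratios scaling, 1709 and 1671 with quantile normalization, 3106 and 2728 with voom and median-of-ratios, and 1724 and 1504 after removal of the GC trend. Depth limits FOSB most, with 12 to 32 reads per control library.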
